A study of Mus musculus with 6 samples.

Results

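The 9 genes described here, chosen by name for their known roles in B-lineage signalling and transcription, were followed in DN3 thymocytes: the transcription factor genes Pax5, Ebf1 and Spib, the coactivator gene Pou2af1, the receptor chain genes Cd79a and Cd79b, and the signalling genes Syk, Blnk and Btk. All 9 are among the 24015 gene symbols in the read count files, and 7 of them had enough reads to be tested among 12939 tested genes in all. Pax5 and Ebf1 were not tested and are described by their counts. DN3 thymocytes are T cell precursors of the thymus without CD4 and CD8, low in CD44 and high in CD25, and were sorted as such from 3 groups of mice with 2 libraries each. The controls are labelled wild type. The p45-deficient mice (p45-/-) lack the long forms of Tcf1, a DNA-binding protein of the HMG-box family whose gene is Tcf7. The Tcf1-deficient mice (Lck-cre+ Tcf1 fl/fl) carry a floxed Tcf1 gene to be deleted by a Cre recombinase driven by the Lck promoter, which is active in T-lineage cells. The labels give no age, and they do not say whether the controls carry Cre or whether the 2 libraries of a group were made from separate animals. The p-values therefore reflect only how far these libraries spread, and that spread could be technical.

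In B cell precursors, Ebf1 and Pax5 are the transcription factors that install and hold B cell identity, and T cell precursors shut this programme off as Notch signalling commits them to the T lineage. The B cell receptor signals through the CD79a and CD79b chains, whose cytoplasmic tyrosines recruit the kinase SYK. SYK then phosphorylates the adaptor BLNK, which brings together BTK and phospholipase C gamma 2. T cells run the same relay with CD3 chains, ZAP70, the adaptor SLP-76 (Lcp2) and phospholipase C gamma 1. Some of the 9 genes are not B cell genes alone: SYK takes part in pre-T cell receptor signalling in the thymus, and Spib is known from plasmacytoid dendritic cells and from early thymocytes.

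Library totals ran from 19640524 to 28107031 counts, and levels are given as CPM, the usual count per scaled library size. The floor of 3 counts lay at 0.11 to 0.145 CPM. These floors cover counting error only. By Il2ra, Cd44 and Cd4 the sort held in most libraries. Il2ra, which encodes CD25, stood at 923 to 1991 CPM. Cd44 stood at 4.7 to 7.94 CPM and Cd4 at 46.1 to 86.5 CPM, except in Tcf1-deficient replicate 1. There Cd44 stood at 41.0 CPM and Cd4 at 372 CPM. That library therefore stands apart from its label in 2 sort markers, and results are given below without it where it changes them. Cd8a and Cd8b1 were higher in both p45-deficient libraries than in both controls, as were 37.9% of all tested genes. Their p45-deficient and control means were 97.9 and 56.8 CPM for Cd8a and 83.6 and 35.8 CPM for Cd8b1. Neither passed (adjusted p = 0.46 and 0.325 by edgeR). Tcf7 counts were lower in both Tcf1-deficient libraries (979 and 976 CPM) than in the other 4 (1810 to 2414 CPM), while counts per gene cannot show the loss of the long isoforms alone.

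The promoter of Cd79a is shown because Cd79a was the single member of the 9 that passed edgeR's test as set up here in any comparison. The sequence runs from 250 bases before to 50 bases after the transcription start at chr7:24897247-24897546 on the plus strand of build GRCm38.p6, from RefSeq, which is not the mm9 build the submitters' processing notes name. The capitals mark E-boxes, the letters CANNTG, which E proteins and other basic helix-loop-helix factors bind.
Cd79a: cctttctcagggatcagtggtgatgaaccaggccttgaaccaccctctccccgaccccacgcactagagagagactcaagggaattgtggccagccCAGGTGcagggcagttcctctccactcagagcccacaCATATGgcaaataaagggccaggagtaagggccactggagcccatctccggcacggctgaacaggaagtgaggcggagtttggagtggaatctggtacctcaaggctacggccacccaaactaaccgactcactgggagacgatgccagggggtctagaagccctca
The 2 E-boxes begin 154 and 117 bases before the start. Of all 32851 promoters in the table, 72.3% hold at least 1 E-box. Searched on both strands for exact matches, this window holds neither the TCF/LEF core CTTTGA, present in 16% of all promoters, nor the EBF letters CCCNNGGG, present in 13.7%. Runs that differ by 1 letter were not counted, and this window holds such a run for the EBF letters. The search therefore does not show that an EBF site is absent. Promoters were in the table for 8 of the 9 genes. CTTTGA occurred in 1 of the 2 promoters of Ebf1 and in 1 of the 2 of Syk, and CCCNNGGG occurred in that of Spib, as 2 overlapping matches. The motifs do not overlap one another in the Cd79a window, and a match is a run of letters, not a measured binding site.

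Setting p45-deficient against control cells asks how these genes are expressed when the long isoforms are missing. Cd79a fell 17.1-fold, from a low level, and was the 1 member of 7 tested that passed edgeR's quasi-likelihood test at an adjusted p below 0.05. The test called 16.0% of all genes in this comparison (8.47% higher, 7.55% lower). Both p45-deficient libraries lay below both controls for Cd79a, Cd79b, Syk, Blnk and Btk, which are the 5 signalling members. Spib overlapped, and Pou2af1 was higher in both p45-deficient libraries. Both p45-deficient libraries lay below both controls for 31.3% of all tested genes and above both for 37.9%. The median log2 fold change of the 7 members was −0.86, against 0.05 over all tested genes. In bulk samples, fewer cells of a type and less RNA per cell cannot be told apart.

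**Figure D1:**
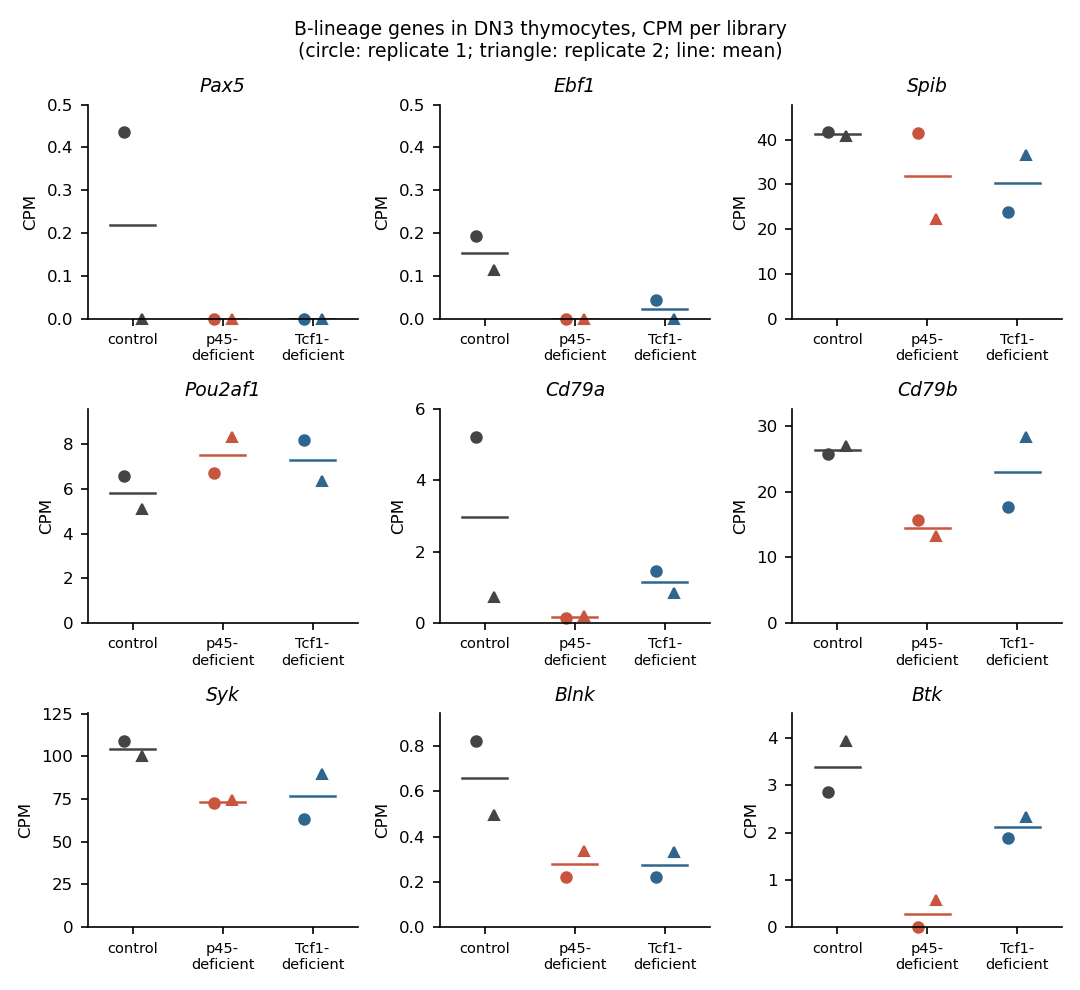
CPM of each of the 9 genes (vertical axes, each starting at 0) in the 6 libraries, by group; circles are replicate 1, triangles replicate 2 and lines group means. Pax5 and Ebf1 stay below 0.5 CPM everywhere, and for the 5 signalling genes from Cd79a to Btk both p45-deficient libraries lie below both controls.

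Pax5 had 9 counts in control replicate 1 and 0 in each of the other 5 libraries. Ebf1 had 4 and 3 counts in the controls, 0 and 0 in p45-deficient cells and 1 and 0 in Tcf1-deficient cells. The 2 factors that define the B lineage were thus at or close to the floor of 3 counts in every library but 1. For Pax5 the exact 95% interval of the ratio to control reached from 0 to 0.494 in p45-deficient and from 0 to 0.508 in Tcf1-deficient cells, but its control counts come from a single library. For Ebf1 in p45-deficient cells it reached from 0 to 0.676. In Tcf1-deficient cells the ratio of Ebf1 to control was 0.143, with an interval from 0.00318 to 1.11. These intervals cover counting error only. In the GENCODE vM21 annotation, exons of Pax5 overlap 2 genes of the opposite strand, 5730488B01Rik and Gm12462. The strand setting of the counting is not known here, so reads of these genes and of Pax5 cannot be told apart. No exon of another gene overlaps those of the other 8 members in that annotation.

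Cd79a, the chain that pairs with CD79b in the B cell receptor, stood at 5.22 and 0.725 CPM in control replicates 1 and 2. It stood at 0.147 and 0.192 CPM in p45-deficient and at 1.45 and 0.832 CPM in Tcf1-deficient replicates 1 and 2. Control replicate 1 is far above all other libraries, and the p45-deficient libraries, with 4 counts each, are the lowest. The log2 fold change in p45-deficient cells was −4.1 (SE 1.04, with edgeR's adjusted p at 0.0393). Without control replicate 1 it was −2.13 (SE 0.96) and did not pass (adjusted p = 0.278), nor did it pass without p45-deficient replicate 1 (adjusted p = 0.241) or replicate 2 (adjusted p = 0.191). The adjusted p over all alternatives ran from 0.00133 with DESeq2 to 0.278.

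The 2 controls differed in Cd79a by 2.71 on the log2 scale, a larger difference than for 99.7% of tested genes. Most of the other B cell surface and surrogate receptor genes listed differed the same way between these 2 libraries, and a few did not. Ms4a1, which encodes CD20, had 39 counts in control replicate 1 and 5 in replicate 2, and Fcer2a, which encodes CD23, had 33 and 4. Faim3 had 27 and 1 counts, Cr2 24 and 3, Tnfrsf13c 18 and 3, and Fcrla 15 and 1. Cd180 had 14 and 4 counts, Cd22 51 and 23, and Bank1 31 and 14. Vpreb1 (0.725 and 1.22 CPM), Vpreb2 (0 and 0.1145 CPM) and Cd72 (1.98 and 2.21 CPM) were higher in control replicate 2. Vpreb3 had 11 counts in each. In the 4 mutant libraries Ms4a1 had 0 or 1 counts and Fcer2a 5 to 8. The 15 B cell surface and surrogate receptor genes of the list used here summed to 17.1 and 7.41 CPM in control replicates 1 and 2, 5.99 and 5.03 CPM in p45-deficient cells and 25.5 and 5.83 CPM in Tcf1-deficient cells. In Tcf1-deficient replicate 1 that sum is mostly Cd38 (11.4 CPM) and Cd22 (5.32 CPM), and Ms4a1 is at 0. The summed dendritic cell and MHC class II markers were highest in the same 2 libraries. The 10 markers summed to 129 and 52.7 CPM in control and 28.0 and 26.6 CPM in p45-deficient replicates 1 and 2. In Tcf1-deficient replicates 1 and 2 they summed to 129 and 19.2 CPM. Most of each sum was Cd74, H2-Aa, H2-Ab1 and H2-Eb1, with control means of 33.1, 11.5, 25.5 and 13.9 CPM. Between the controls, Itgax (mean 1.51 CPM, SD 0.08) and Xcr1 (0.73 CPM, SD 0.06) barely differed. Zbtb46 (0.256 CPM, SD 0.254) and Clec9a (0.218 CPM, SD 0.308) differed more. Clec9a was at 0 in 4 libraries. The part of these cells in the Cd79a result was not tested beyond the fit without control replicate 1.

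**Figure D2:**
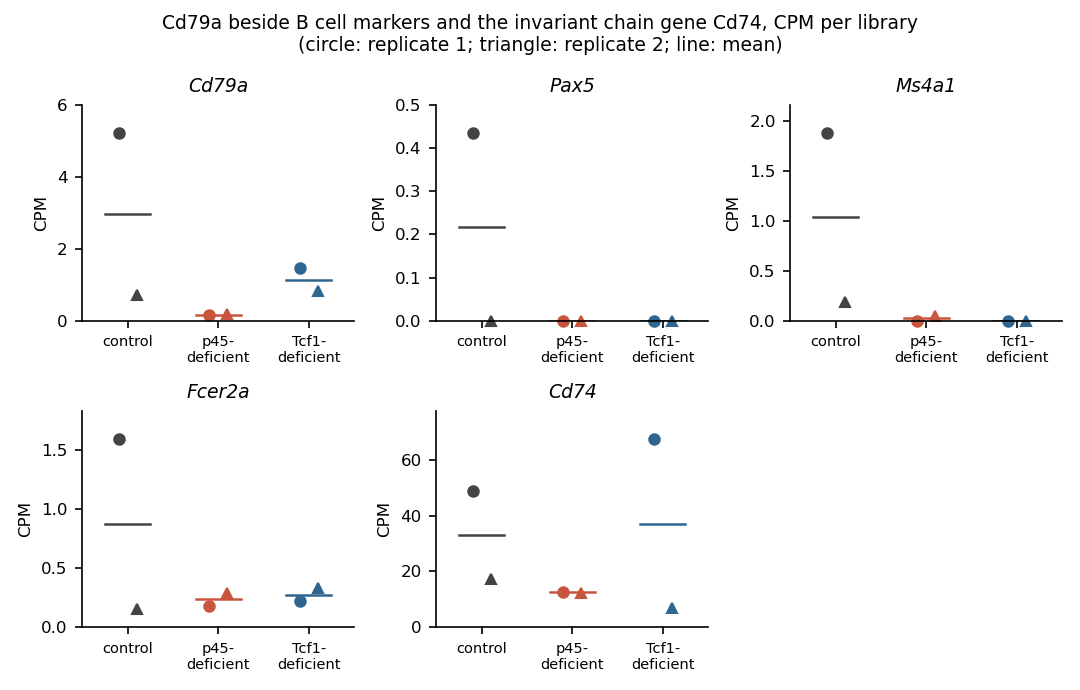
CPM (vertical axes, each starting at 0) of Cd79a, Pax5, the B cell markers Ms4a1 and Fcer2a, and the MHC class II invariant chain gene Cd74 in the 6 libraries; circles are replicate 1, triangles replicate 2 and lines group means. Control replicate 1 is the highest library for the first 4 genes (Cd79a at 5.22 CPM), and Tcf1-deficient replicate 1 for Cd74.

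Cd79b, the partner chain, behaved apart from Cd79a in the controls. It stood at 25.7 and 27.1 CPM in control, 15.7 and 13.3 CPM in p45-deficient and 17.7 and 28.4 CPM in Tcf1-deficient replicates 1 and 2. The 2 controls are close together and both p45-deficient libraries are below them, whereas the 2 Tcf1-deficient libraries lie far apart, 1 near the p45-deficient level and 1 above the controls. The log2 fold change in p45-deficient cells was −0.86 (SE 0.24) with an adjusted p of 0.0514 by edgeR, just short of the threshold. It passed in 8 of 13 alternatives, among them DESeq2 (adjusted p = 0.00898), and the adjusted p ran from 0.00361 to 0.265. Per kilobase of exon (lengths from GENCODE vM21 on GRCm38), Cd79b stood at 18.0 to 18.9 CPM in control, and Cd79a at 0.498 to 3.58 CPM. The 2 chains, which need each other at the surface of a B cell, were thus at unequal RNA levels in each control library.

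Syk, the kinase that binds the phosphorylated receptor chains, was the highest of the 9 genes in CPM. It stood at 109 and 100.2 CPM in control, 72.5 and 74.4 CPM in p45-deficient and 63.5 and 89.5 CPM in Tcf1-deficient replicates 1 and 2. All 4 mutant libraries are below both controls. The log2 fold change was −0.51 (SE 0.17, with edgeR's adjusted p at 0.0824) in p45-deficient cells, with a pass in 5 of 13 alternatives and an adjusted p from 0.00547 to 0.349. Zap70, which does the work of SYK in mature T cells, had values that went the other way: 107 and 99.1 CPM in control, 196 and 221 CPM in p45-deficient and 219 and 98.3 CPM in Tcf1-deficient cells, with an adjusted p of 0.0996 by edgeR (log2 fold change 1.02, SE 0.35) in p45-deficient cells. Per kilobase of exon, the level of Zap70 was 3.06 and 3.09 times that of Syk in the controls, 8.44 and 9.27 times in p45-deficient cells and 10.8 and 3.44 times in Tcf1-deficient replicates 1 and 2. Both p45-deficient libraries and Tcf1-deficient replicate 1 thus hold more Zap70 RNA for each unit of Syk RNA than the controls, and the second Tcf1-deficient library is close to them.

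Blnk, the adaptor between SYK and BTK, had 17 and 13 counts in the controls, 6 and 7 in p45-deficient cells and 5 and 8 in Tcf1-deficient cells, or 0.496 to 0.822 CPM in control and 0.22 to 0.335 CPM in the 4 mutant libraries. The mutant libraries do not overlap the controls, but at this depth the log2 fold change of −1.24 (SE 0.73) in p45-deficient cells did not pass (adjusted p = 0.275 by edgeR), nor did it in any of 13 alternatives. Its T cell counterpart Lcp2 stood at 180.5 to 248 CPM over the 6 libraries.

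Btk, the Tec kinase of B and myeloid cells, had 59 and 103 counts (2.85 and 3.93 CPM) in the controls. It had 0 and 12 counts (0 and 0.575 CPM) in p45-deficient cells and 43 and 56 counts (1.89 and 2.33 CPM) in Tcf1-deficient cells. The p45-deficient libraries are the lowest and the Tcf1-deficient ones lie between them and the controls. The pooled counts of p45-deficient cells were 0.0722 of control per unit of depth, with an exact 95% interval from 0.0366 to 0.13 for counting error alone. The log2 fold change was −3.63 (SE 1.09, with edgeR's adjusted p at 0.0649). The 2 p45-deficient libraries differed from each other by more than for 99.8% of tested genes, and the value passed in 5 of 13 alternatives, with DESeq2 at an adjusted p of 0.0045. Without p45-deficient replicate 1, which has no Btk read, the log2 fold change was −2.55 (adjusted p = 0.11). The 10 myeloid markers, from cells that also express Btk, summed to 11.3 to 14.3 CPM in the controls, 6.91 to 9.48 CPM in p45-deficient and 9.36 to 11.9 CPM in Tcf1-deficient cells, and their part in the Btk values was not tested. Of the 4 tested, Lyz2 was lower in both p45-deficient libraries (1.84 and 5.17 CPM) than in both controls (8.03 and 9.08 CPM), while Itgam and Emr1 overlapped, and the median log2 fold change of the 4 was 0.43.

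Spib, an Ets-family factor, stood at 41.6 and 40.9 CPM in control, 41.6 and 22.2 CPM in p45-deficient and 23.9 and 36.5 CPM in Tcf1-deficient replicates 1 and 2. The first p45-deficient library is level with the controls and the second is at the bottom of the range, so the groups overlap. The log2 fold change in p45-deficient cells was −0.37 (SE 0.32, with edgeR's adjusted p at 0.459) and was 0.0149 without p45-deficient replicate 2. The 10 plasmacytoid dendritic cell markers summed to 749 to 786 CPM in the controls, 606 to 635 CPM in p45-deficient and 602 to 604 CPM in Tcf1-deficient cells. Most of each sum was Ly6d, Ccr9 and Bst2, with control means of 340, 163 and 133 CPM. The part of these markers in the Spib values was not tested. Siglech, which marks plasmacytoid dendritic cells, had 0 to 4 counts in each library, while Spib had 464 to 1131. Per kilobase of exon, Spib stood at 14.3 to 14.5 CPM in control, between Syk (10.7 to 11.6 CPM) and Cd79b.

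Pou2af1, a coactivator of octamer-binding factors in B cells, was the 1 tested member with a higher value in both mutant groups. It stood at 6.58 and 5.08 CPM in control, 6.73 and 8.33 CPM in p45-deficient and 8.18 and 6.37 CPM in Tcf1-deficient replicates 1 and 2. The p45-deficient libraries lie above both controls, the lower of them only slightly, and the Tcf1-deficient ones overlap the controls. The log2 fold change was 0.37 (SE 0.29, with edgeR's adjusted p at 0.409) in p45-deficient and 0.32 (SE 0.29, adjusted p = 0.793) in Tcf1-deficient cells.

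**Figure D3:**
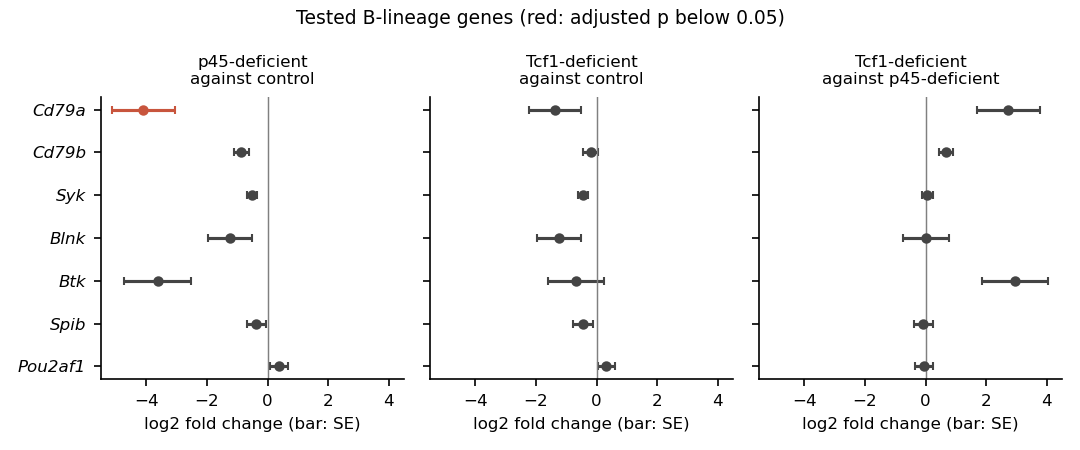
Log2 fold change (horizontal axis, points) with its SE (bars) for the 7 tested members in the 3 comparisons; red marks an adjusted p below 0.05 by edgeR. Cd79a in p45-deficient against control (−4.1) is the single red point, and Btk (−3.63) lies nearest to it with a like SE.

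The comparison of Tcf1-deficient with control cells asks the same of cells with the floxed gene; whole-gene Tcf7 counts do not show how complete its loss was. No member passed, and no gene of all 12939 did (0%) by edgeR's quasi-likelihood test, while 1024 genes and 1 member, Syk, had an unadjusted p below 0.05 and DESeq2 called 145 genes and no member. The values of Syk (log2 fold change −0.45, SE 0.17, adjusted p = 0.613), Spib (−0.45, SE 0.32), Blnk (−1.23, SE 0.73) and Btk (−0.69, SE 0.91) were lower in both Tcf1-deficient libraries than in both controls, which held for 18.0% of all tested genes. Without Tcf1-deficient replicate 2, Syk passed at a log2 fold change of −0.73 (adjusted p = 0.0151 by edgeR), where the lone Tcf1-deficient library is the one that stands apart in Cd4 and Cd44 and is assumed to vary like the other groups. Without Tcf1-deficient replicate 1, the log2 fold change of Syk was −0.22 (adjusted p = 0.701). Cd79a (−1.37, SE 0.87) and Cd79b (−0.19, SE 0.24) overlapped between the groups, and each turned in sign without a single library: Cd79a to 0.65 without control replicate 1, and Cd79b to 0.11 without Tcf1-deficient replicate 1.

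The direct comparison of Tcf1-deficient with p45-deficient cells tests whether the 2 mutants differ, using the same p45-deficient libraries as above; both mutants were also set against the same 2 controls. The test called 10.4% of all genes (5.05% higher, 5.36% lower) and no member, although Cd79a, Cd79b and Btk had an unadjusted p below 0.05, as did 4030 genes in all, and DESeq2 called Btk (adjusted p = 0.0319). Those 3 members were higher in both Tcf1-deficient than in both p45-deficient libraries, as were 27.7% of all tested genes. The log2 fold changes by edgeR were 2.73 (SE 1.04, adjusted p = 0.128) for Cd79a, 0.67 (SE 0.24, adjusted p = 0.112) for Cd79b and 2.95 (SE 1.08, adjusted p = 0.12) for Btk. Without Tcf1-deficient replicate 1 the value of Cd79b was 1.03 (adjusted p = 0.0102), in a fit where 1 Tcf1-deficient library is left and the spread comes from the other groups. Syk (0.06, SE 0.17), Spib (−0.08, SE 0.32), Pou2af1 (−0.05, SE 0.29) and Blnk (0.01, SE 0.76) had values near 0, with SEs from 0.17 to 0.76 on that scale.

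Other genes of the B cell receptor pathway were taken from a list of 24 signalling partners. Of these, all tested, 6 fell and 1 rose in p45-deficient cells by edgeR, against 7.55% and 8.47% of all tested genes. The median log2 fold change was −0.18. In both p45-deficient libraries 11 partners were lower than in both controls and 8 were higher, against 31.3% and 37.9% of all tested genes. Genes of other cells or stages went either way. The 9 tested dendritic cell and MHC class II markers had a median log2 fold change of −1.81, and none was called. Of these, 8 were lower in both p45-deficient libraries than in both controls, against 31.3% of all tested genes. The median was −1.26 for the 2 tested erythroid markers and −0.40 for the 8 plasmacytoid dendritic cell ones. It was −0.02 for 5 natural killer and mast cell, 0.29 for 3 thymic stromal and 0.43 for 4 myeloid markers. Of 14 sort marker and T commitment genes, Dtx1 alone was called higher (3.27-fold, adjusted p = 0.00186 by edgeR) and Kit alone lower. Over all tested genes 16.0% were called, 8.47% higher and 7.55% lower. Kit, the stem cell factor receptor of early thymocytes and mast cells, fell 8.88-fold, from control levels of 53.4 and 54.8 CPM down to 5.55 and 6.65 CPM (adjusted p = 0.000935 by edgeR). The part of these cells in the partners' values was not tested. Plcg2, the phospholipase that BTK activates, fell 9.06-fold, with controls at 36.5 and 34.5 CPM and p45-deficient libraries at 2.35 and 5.55 CPM (log2 fold change −3.18, SE 0.37, adjusted p = 0.00446). In Tcf1-deficient cells it stood at 18.1 and 19.2 CPM, between the other groups, and was higher than in p45-deficient cells by 2.25 on the log2 scale (SE 0.36, adjusted p = 0.0163). Its T cell counterpart Plcg1 fell 1.5-fold in p45-deficient cells (adjusted p = 0.0294 by edgeR), from 269 and 299 CPM to 183 and 195 CPM. Plcg1 was the 1 of the 9 T cell counterparts called, against the same 16.0% of all tested genes. It was not called without any 1 of the control or p45-deficient libraries. Plcg2 is thus the partner with the largest fold of the list, and its p45-deficient libraries do not come near either control.

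Pik3cd, the lymphocyte catalytic subunit of PI3 kinase, fell 2.13-fold, from 585 and 592 CPM to 280 and 273 CPM, and stood at 714 and 591 CPM in Tcf1-deficient cells. Pik3ap1, the adaptor BCAP that couples the B cell receptor to PI3 kinase, fell 4.49-fold, from 4.25 and 5.15 CPM to 0.808 and 1.29 CPM. Lyn, the Src-family kinase that acts first at the B cell receptor, fell 3.01-fold, from 13.5 and 16.7 CPM to 3.68 and 6.37 CPM. Its Tcf1-deficient libraries, at 4.18 and 7.74 CPM, lay with the p45-deficient ones and below both controls, but this difference from control did not pass (−1.34 on the log2 scale, SE 0.39, with edgeR's adjusted p at 0.588). The calcium channel gene Itpr1 fell 1.92-fold and Rasgrp3, a Ras activator, 4.83-fold from a level of 1.45 and 1.18 CPM. Blk, another Src-family kinase of B cells that is also found in gamma-delta T cells, was the 1 partner called higher. Its controls stood at 17.8 and 14.7 CPM and its p45-deficient libraries at 37.75 and 35.8 CPM, a 2.26-fold rise. Fyn, also of the Src family, stood at 95.7 and 116.9 CPM in control and 228 and 218 CPM in p45-deficient cells. That 2.1-fold rise did not pass (adjusted p = 0.0619 by edgeR).

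Plcg2 and Pik3cd passed in all 13 alternatives of the p45-deficient comparison. The other calls did not hold so widely. Lyn, Pik3ap1, Itpr1 and Rasgrp3 were not called without any 1 of the control or p45-deficient libraries, and Blk was not called without control replicate 2 (adjusted p = 0.0503 by edgeR) or p45-deficient replicate 1 (adjusted p = 0.0648). In those fits 2 or 3 partners were called, and without either Tcf1-deficient library 10 were. In Tcf1-deficient against control cells no partner passed edgeR or DESeq2. An unadjusted p below 0.05 by edgeR was reached by 6 partners and by 7.91% of all tested genes. Against p45-deficient cells, 2 partners were called higher in Tcf1-deficient cells (Plcg2 and Pik3cd) and 1 lower (Blk). The shares over all tested genes were 5.05% and 5.36%. Blk was not called there in 10 of 13 alternatives.

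**Figure D4:**
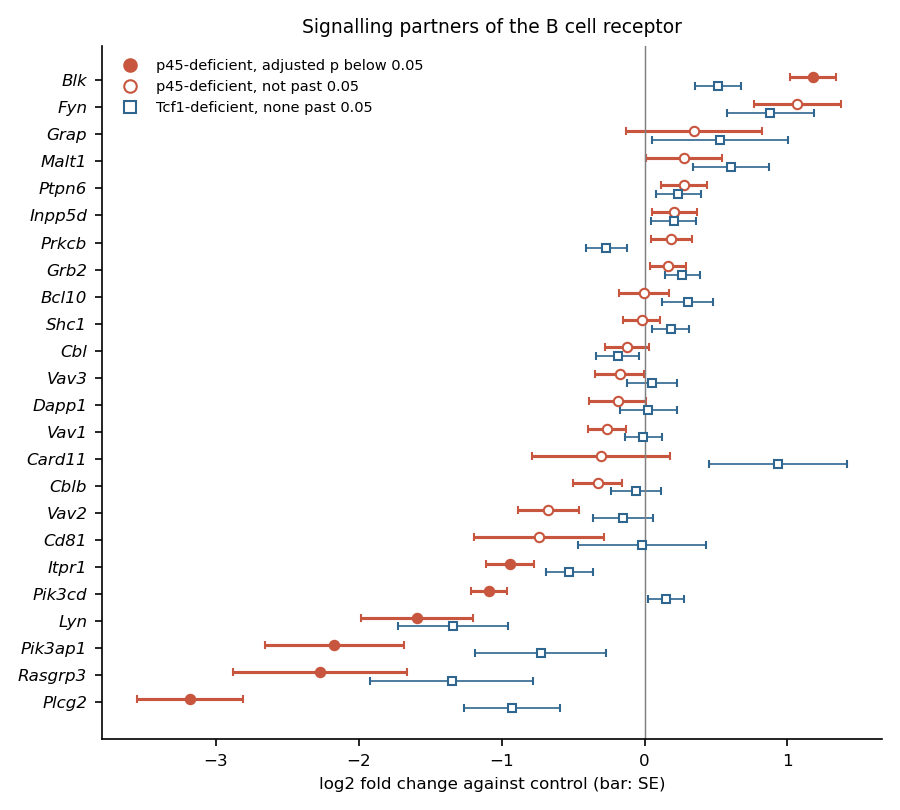
Log2 fold change against control (horizontal axis) with its SE (bars) for the 24 signalling partners of the B cell receptor; red circles are p45-deficient cells, filled where the adjusted p was below 0.05, and blue squares are Tcf1-deficient cells, none of which passed. Plcg2 lies farthest left (−3.18) and Blk is the 1 filled circle on the right (1.18).

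Of the B cell surface and surrogate receptor genes, 8 of the 15 listed were tested. In p45-deficient cells 1 of them was called, against 16.0% of all tested genes (7.55% lower). This was Cd72, an inhibitory coreceptor, 4-fold lower (adjusted p = 0.041 by edgeR). Cd72 went from control levels of 1.98 and 2.21 CPM down to 0.515 and 0.527 CPM. It was higher in Tcf1-deficient than in p45-deficient cells (3.43 and 1.79 CPM, adjusted p = 0.0368). Unlike Cd79a, Cd72 did not differ between the controls in the way of Ms4a1, but neither call held without any 1 of the control or p45-deficient libraries, and the second was also lost without Tcf1-deficient replicate 1. Among 24 transcription factors and early genes shared by B and T cell precursors, 1 was called in p45-deficient cells, against 16.0% of all genes. This was Bcl11a, a zinc-finger factor that B cell development needs. It had 420 counts in each control, 12 and 0 in p45-deficient cells and 108 and 206 in Tcf1-deficient cells (adjusted p = 0.00777 by edgeR). It was not called without control replicate 1 (adjusted p = 0.0546). In the fit of the 2 groups alone 15 genes of this list were called, where 3907 of all 12613 tested genes were. Tcf3, which encodes the E proteins E12 and E47, stood at 486 and 424 CPM in control and 332 and 369 CPM in p45-deficient cells (adjusted p = 0.0743 by edgeR). Igj, the joining chain of secreted antibodies, was the 1 of 5 plasma cell genes called, against the same 16.0%. It fell 8.06-fold in p45-deficient cells, from 4.74 and 2.4 CPM to 0.661 and 0.192 CPM. Without any 1 of the control or p45-deficient libraries it was not called.

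The patterns of the members over the 6 libraries were set against all 9808 other tested genes with a mean of at least 5 CPM, by the root-mean-square difference of centred log2 CPM, for the 4 members that reach that mean. Closest to Cd79b were Repin1 (0.07), Renbp (0.08) and Ern1 (0.08). Closest to Syk were Mapk1ip1 (0.06), Cherp (0.06) and Tmem41a (0.06). The genes nearest to Spib were farther off, Pcbp3 (0.11), Clcn5 (0.14) and Rtkn (0.16). Closest to Pou2af1 were Timeless (0.04), Haus4 (0.06) and Polr1c (0.06). Over the 7 tested members the range between the highest and lowest library ran from 0.71 for Pou2af1 to 5.57 for Btk, on the log2 scale.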

How the data were processed

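Each of the 6 libraries has a deposited table of raw read counts, 1 whole number per gene symbol. Per the submitters' processing notes the tools were TopHat2, featureCounts 1.5.0-p3 and DESeq2 3.4, with build mm9; the sources used here give neither their roles nor the annotation or strandedness of counting. Groups come from the sample titles. Counts were filtered with filterByExpr, scaled with TMM and fitted in edgeR 4.0.16 (R 4.3.3) with 1 mean per group over 6 libraries and 3 residual degrees of freedom. The quasi-likelihood F test was two-sided, with Benjamini-Hochberg adjustment over all tested genes. SEs come from the F statistic. An exact permutation test of 2 against 2 libraries cannot go below p = 0.333 and was not used. Within groups, libraries differed by more than counting noise (chi-square per degree of freedom 38.7, 9.79 and 73.1) and were kept as separate replicates. The test was checked on simulated data. There it recovered 13.4% to 14.9% of 1.5-fold changes, 53.7% to 68.7% of 2-fold and 87.9% to 90.9% of 4-fold changes. With 66 or 67 genes changed at each fold, false calls numbered 12, 13 and 16 in the 3 comparisons. Changes were put only into genes above a minimum mean CPM, which Blnk and Cd79a do not reach, so these shares do not cover them. Named genes are the 9 members, genes of other lists past the threshold (up to 5 per list and comparison, by smallest p), T cell counterparts of members, cell type markers and the 3 genes most like a member; others, such as Cd38, were chosen after their values were seen. Some genes of the lists are not reported here and were left out of them. The members and lists were chosen with earlier results of these data known. DESeq2 1.42.0, other scalings, no filter, fits of 2 groups, a replicate block and the omission of each library were the alternatives.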

Additional observations from a re-analysis of the deposited data

How the results depend on the processing

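With 2 libraries a group, calls rested on the spread of a few libraries. In p45-deficient against control, 2073 genes were called (1096 higher, 977 lower), 3907 in a fit of those 2 groups alone, and 258 to 3923 when 1 library was left out. Library totals gave 721 higher and 1281 lower, and moved the all-gene median from 0.05 to −0.06 on the log2 scale; in Tcf1-deficient against p45-deficient cells the split went from 654 higher and 694 lower to 744 and 483. The count of members called, 1 in the main analysis, was 2 with RLE size factors, library totals or upper-quartile scaling, 3 with no filter, 4 with DESeq2 or the 2 groups alone, all lower. All genes called in those fits numbered 1985, 2002, 1995, 2259, 3069 and 3907, and the members numbered 0 to 4 with 1 library left out. In Tcf1-deficient against control, 33 genes were called with no filter, 145 with DESeq2 and 0 to 894 with 1 library left out, and 0 or 1 member. Against p45-deficient cells, 1348 genes were called, 2551 with DESeq2, 488 with 2 groups and 105 to 3437 with 1 library left out, and 1 member with DESeq2 and 0 or 1 with 1 library left out. Signalling partners called there numbered 3, 5 with DESeq2, 1 with 2 groups alone and 1 to 9 with 1 library left out; in the other comparisons they ranged from 2 to 10 (p45-deficient) and 0 to 6 (Tcf1-deficient against control).

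The replicate numbers do not pair the libraries (correlations of −0.01, −0.05 and −0.03 between groups), and with a replicate block 1613, 0 and 920 genes and 1, 0 and 0 members were called. The causes of these shifts were not tested. Each sign that turned was of a value that had not passed. In p45-deficient cells Lcp2 (0.04) became −0.00178 with RLE size factors, −0.0607 with library totals, −0.0316 with upper-quartile scaling, −0.0117 with no filter, −0.00182 with DESeq2, −0.00727 in the fit of 2 groups and −0.0987 to 0.0924 with 1 library left out, and Spib ranged from −0.89 to 0.0149. Against p45-deficient cells Pou2af1 (−0.05) became 0.00809 with library totals and ran from −0.21 to 0.11 with 1 library left out, Blnk from −0.33 to 0.33, Syk from −0.22 to 0.34, Spib from −0.47 to 0.44 and Zap70 from −1.03 to 0.0589. Against control Zap70 ran from −0.062 to 1.08, Cd79a from −2.2 to 0.65 and Cd79b from −0.58 to 0.11. Depth limits Pax5, Ebf1 and Blnk, with at most 17 counts in a library.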

Other observations

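Tcf1-deficient replicate 1 was the highest of the 6 libraries for some genes of later B cell and plasma cell stages, chosen after their values were seen, and not for others. Prdm1, the factor of plasma cells and effector T cells, stood at 14.0 CPM there and at 0.725 to 1.63 CPM in the other 5 libraries. Cd38 stood at 11.4 CPM against 1.0 to 1.45 CPM, and Irf4, a factor of activated lymphocytes, at 30.6 CPM against 3.33 to 13.3 CPM. Bach2, which holds back plasma cell genes, was also highest there, at 85.2 CPM against 19.0 to 41.3 CPM. In the same library Mzb1 was the lowest of the 6, at 7.65 CPM, Xbp1 the second lowest, at 139 CPM, and Igj stood at 1.01 CPM against 4.74 and 2.4 CPM in control. It held the highest Cd4 and Cd44, while its Pax5 count was 0 and its Ebf1 count 1.

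Mzb1 is a chaperone gene of antibody-secreting cells. It stood at 14.4 and 17.2 CPM in control, 36.6 and 25.1 CPM in p45-deficient and 7.65 and 21.5 CPM in Tcf1-deficient cells, and did not pass in p45-deficient cells (0.97 on the log2 scale, SE 0.46, with edgeR's adjusted p at 0.2).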
